A study of Mus musculus with 18 samples.

Results

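The IκB family was followed in IκBα-WT and IκBα-KO mouse embryonic stem cells (mESCs) and in the embryoid bodies (EBs) grown from them. The 6 members were taken by gene symbol. Nfkbia, Nfkbib and Nfkbie encode the classical cytoplasmic inhibitors IκBα, IκBβ and IκBε, and Nfkbid, Nfkbiz and Bcl3 encode the nuclear proteins IκBNS, IκBζ and BCL-3. They are 6 of the 55487 genes counted, and all 6 had enough counts to be tested. RNA-seq libraries came from the mouse ES line ES-E14TG2a. They comprise 3 IκBα-WT (IkappBalpha+/+) and 3 IκBα-KO (IkappBalpha-/-) mESC clones kept in serum with LIF, the cytokine that holds them undifferentiated, and 6 libraries each of 48 hr EBs and 96 hr EBs, which are aggregates formed without LIF. Each clone grew from 1 sorted cell after CRISPR/Cas9 transfection, with non-targeting guides in the WT clones and guides against Nfkbia in the KO clones. By the labels each EB stage holds 3 libraries of each genotype. The EB columns carry the clone codes D4, E14, E2, E3, H7 and H9, which the labels do not pair with a genotype. The EB libraries are therefore compared by stage only, and no EB value is assigned to WT or KO.

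NF-κB dimers are held inactive by IκB proteins, whose ankyrin repeats mask the nuclear localization signals of Rel proteins. When a signal activates the IKK kinases, the classical IκBs are phosphorylated, ubiquitinated and degraded, and the freed dimers enter the nucleus. Nfkbia is itself an NF-κB target, which closes a negative feedback loop. IκBNS, IκBζ and BCL-3 act in the nucleus, mostly as cofactors of p50 and p52 dimers. The precursors p105 and p100, encoded by Nfkb1 and Nfkb2, carry ankyrin repeats of their own and also retain Rel proteins in the cytoplasm. Because these proteins overlap in function, the comparison of genotypes asks whether transcripts of the other members differ when Nfkbia is disrupted.

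The guides are shown because they define the KO group. Both match the coding part of exon 1 of Nfkbia (ENSMUSG00000021025, GRCm38 chr12:55489410-55492647, minus strand). Capitals mark the adjacent motif in the genome that Cas9 requires, which is not part of the guide.
gRNA 1: gtggacgatcgccacgacagCGG
gRNA 2: ccttcttgaggccatcccgcGGG
gRNA 1 matches the minus strand at chr12:55492432-55492451 and places the cut after coding base 92, in codon 31 of 314. gRNA 2 matches the plus strand at chr12:55492460-55492479, with the cut after coding base 50, in codon 17. The cuts are 42 bases apart near the start of the open reading frame, and counts over the exons also register transcripts of a disrupted allele.

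Nfkbia was first measured in mESCs to check the labels. Levels are given in CPM, each count being divided by the scaled library total in M counts. Nfkbia was at 34.2, 35.1 and 25.3 CPM in IκBα-WT clones 1 to 3. In IκBα-KO clones 1 to 3 it was at 10.2, 9.44 and 10.1 CPM. The genotypes did not overlap, and the KO clones lay closer together than the WT clones. Nfkbia fell by 1.67 on the log2 scale in the KO clones (SE 0.14, edgeR quasi-likelihood test with Benjamini-Hochberg adjustment, adjusted p = 0.00489). This is 3.18-fold lower, with a 95% interval of 2.53 to 3.99. Without WT clone 2 the log2 fold change was -1.59 and the adjusted p of the same edgeR test was 0.0633. The adjusted p was under 0.05 without any other clone.

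Counts on genes ran from 28.3 M to 40.9 M per library, and the KO mESC libraries (34.1 M to 40.9 M) were deeper than the WT libraries (29.4 M to 31.1 M). The summed level of 7 pluripotency markers was 2992 to 3900 CPM in mESCs, 1429 to 2126 CPM in 48 hr EBs and 687 to 1568 CPM in 96 hr EBs, in the order of the labelled stages. In mESCs the same sum was 2992 to 3339 CPM in WT and 3353 to 3900 CPM in KO clones (1 of 7 genes higher). That of 8 markers of differentiating EBs was 24.6 to 42.3 CPM in WT and 8.90 to 15.1 CPM in KO clones (2 of 8 genes lower). These 2 were Fgf5 and Lef1, with log2 fold changes of -4.44 and -3.13 (edgeR adjusted p = 0.00832 and 0.00626). The other 6 were not called, and the median log2 fold change of the 8 was 0.36. Of the 8, 5 in WT and 6 in KO clones had means under 1 CPM. Summed blood and endothelial markers were 67.9 to 75.4 CPM in WT and 81.1 to 124 CPM in KO clones, with 0 of 6 genes tested called by edgeR, 2 at an unadjusted p under 0.05, and 1 called higher by DESeq2. Summed fibroblast markers were at most 11.4 CPM in WT and 8.54 to 16.0 CPM in KO clones, with 1 of 5 genes tested lower (Col3a1, log2 fold change -3.45, edgeR adjusted p = 0.0376). Col3a1 had means under 1 CPM in both genotypes. The part of these cell types in the genotype differences was not tested. KO clone 2 stood apart from the other KO clones in the genes around Nfkbia itself, where the median of 34 genes in a window of 10 Mb lay at -0.50 in log2 CPM from the average of the WT clones, while it was 0.0053 and 0.016 in KO clones 1 and 3. With 3 clones a side, 3.09% of the 21843 genes tested were higher and 1.69% lower in KO mESCs at an adjusted p under 0.05, and the 1046 genes called became 0 without WT clone 2 (3104 at an unadjusted p under 0.05, no other tool run) and 3736 without KO clone 2.

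Among the other 5 members, Bcl3 was higher in IκBα-KO mESCs and the remaining 4 did not pass the test. Bcl3 (ENSMUSG00000053175, chr7:19808462-19822770, minus strand) encodes a nuclear protein that can turn p50 and p52 homodimers into activators or stabilize them on DNA. It was at 17.5, 16.9 and 17.0 CPM in WT clones 1 to 3. In KO clones 1 to 3 it was at 21.8, 22.8 and 24.2 CPM. Every KO clone exceeded every WT clone, and the WT clones were nearly equal. The share of all genes with such a separation was not counted. Its log2 fold change was 0.42 (SE 0.09, edgeR adjusted p = 0.0436), a fold of 1.34 with a 95% interval of 1.15 to 1.55. The 102 genes in its 10 Mb window had medians of -0.10 to -0.04 in the KO clones, so the region as a whole was not higher. The adjusted p of the edgeR test was 0.00617 without KO clone 2 and between 0.0874 and 0.210 without any 1 of the other 5 clones, while the log2 fold change stayed between 0.37 and 0.45. Without KO clone 2 the count of all genes called also rose, from 1046 to 3736. The clones then left, KO 1 and KO 3, had similar shifts around Traf3 and Cyld, given below, and their independence was not tested. Exons of Bcl3 overlap those of an antisense gene, Gm16175, over 161 bases, and the strand setting of the counting is not given in the sources used here.

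Nfkbib (ENSMUSG00000030595, chr7:28758251-28767512, minus strand) encodes IκBβ, which binds much the same dimers as IκBα but is not induced by NF-κB to the same extent. It was at 18.9, 19.6 and 19.5 CPM in WT clones 1 to 3. It was at 20.6, 23.4 and 17.4 CPM in KO clones 1 to 3. The KO clones lay on both sides of the WT clones. It had a log2 fold change of 0.08 (SE 0.12, edgeR adjusted p = 0.762), and the 95% interval of the fold ran from 0.875 to 1.27. It turned to -0.02 without KO clone 2. Exons of Nfkbib overlap those of Ccer2 over 314 bases and of Sirt2 over 42 bases, both on the opposite strand.

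Nfkbie (ENSMUSG00000023947, chr17:45555703-45563169, plus strand) encodes IκBε, another inhibitor induced by NF-κB. It was at 2.20, 1.81 and 2.64 CPM in WT clones 1 to 3. It was at 2.88, 2.16 and 1.88 CPM in KO clones 1 to 3. The genotypes overlapped over nearly their whole range. The log2 fold change was 0.05 (SE 0.24, edgeR adjusted p = 0.926), with a 95% interval of the fold from 0.705 to 1.53. It was -0.14 without KO clone 1 and -0.08 without WT clone 2, so these clones do not set a direction.

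Nfkbid (ENSMUSG00000036931, chr7:30421732-30428746, plus strand) encodes IκBNS, a nuclear cofactor known from lymphocytes and macrophages. It was at 7.66, 7.78 and 6.70 CPM in WT clones 1 to 3. It was at 6.75, 10.1 and 9.18 CPM in KO clones 1 to 3. KO clones 2 and 3 were above every WT clone and KO clone 1 was among them. The log2 fold change of 0.23 was within the spread between clones (SE 0.17, edgeR adjusted p = 0.477, 95% interval of the fold 0.896 to 1.54).

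Nfkbiz (ENSMUSG00000035356, chr16:55811375-55838899, minus strand) encodes IκBζ, an inducible nuclear cofactor of p50. It was at 3.63, 5.61 and 5.55 CPM in WT clones 1 to 3. It was at 3.58, 3.78 and 3.79 CPM in KO clones 1 to 3. The KO clones were nearly equal, and WT clone 1 lay among them. Nfkbiz had a log2 fold change of -0.41 (SE 0.20, edgeR adjusted p = 0.283), and the 95% interval of the fold ran from 0.550 to 1.03.

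**Figure D1:**
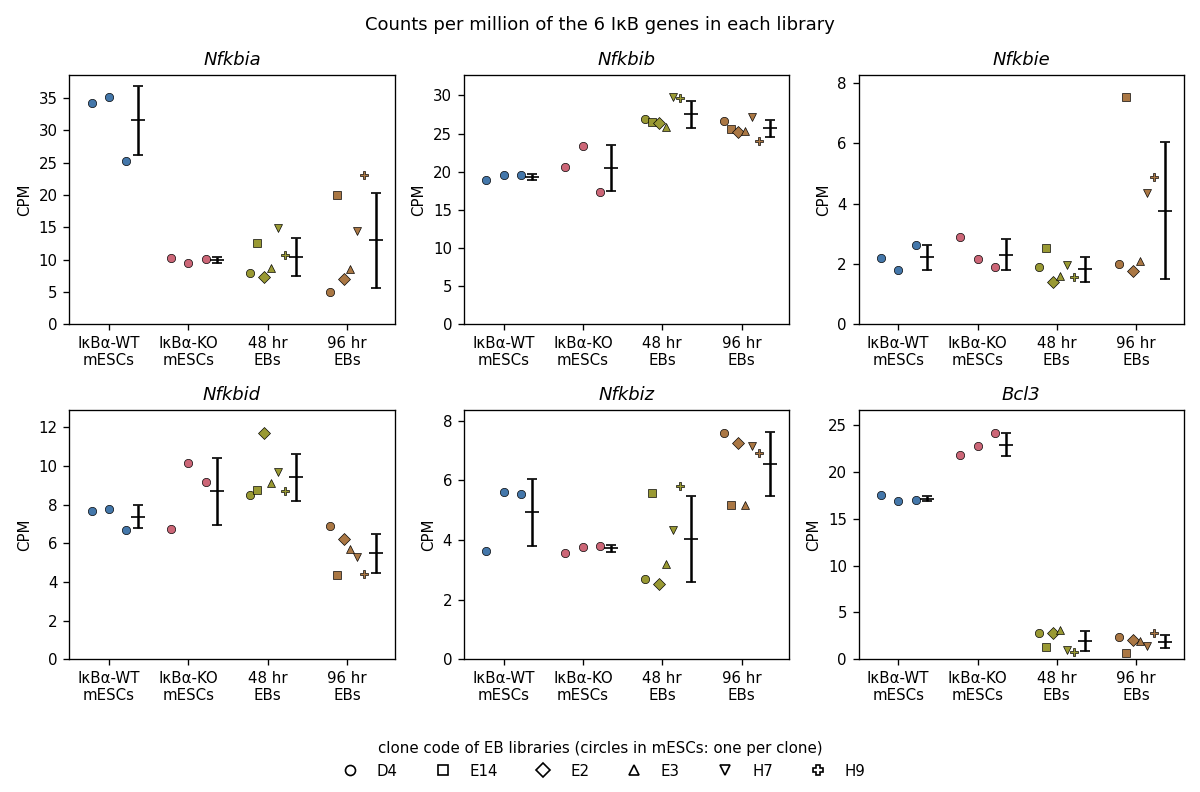
Level of each of the 6 IκB genes in CPM (vertical axes, from 0) in the 18 libraries. Each point is 1 library, coloured by group and, in EBs, shaped by clone code, and the bar beside each group is its mean ± SD (n = 3 per mESC genotype, n = 6 per EB stage). Nfkbia and Bcl3 separate the mESC genotypes in opposite directions, and Bcl3 is at or below 3.10 CPM in the 12 EB libraries.

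The levels of different genes were compared per length, as CPM per kilobase of exon (FPKM) over all annotated exons of each gene. In IκBα-WT mESCs Nfkbia was the most abundant member at 19.6 ± 3.35 FPKM (SD, n = 3). It was followed by Nfkbib at 8.93 ± 0.18, Bcl3 at 6.93 ± 0.12 and Nfkbid at 3.15 ± 0.25 FPKM. Nfkbiz at 0.982 ± 0.225 and Nfkbie at 0.728 ± 0.137 FPKM overlapped each other at the low end. In IκBα-KO mESCs Nfkbib (9.42 ± 1.39 FPKM) and Bcl3 (9.26 ± 0.49 FPKM) came first and overlapped, and Nfkbia came next at 6.16 ± 0.26 FPKM. Computed over the longest transcript of each gene in place of all exons, Bcl3 came before Nfkbib in the KO clones. Nfkbid came after these in both genotypes, and Nfkbie and Nfkbiz were again not separated.

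The summed level of the 5 other members was compared with the difference in Nfkbia as a description, with no test, since the members were chosen with results known. The sum was 20.7 ± 0.212 FPKM (SD, n = 3) in IκBα-WT and 23.9 ± 1.64 FPKM (SD, n = 3) in IκBα-KO mESCs. The difference of 3.17 FPKM equals 23.6% of the 13.4 FPKM by which the Nfkbia mean was lower. Bcl3 alone made up 2.33 FPKM of it, and Nfkbib and Nfkbid, which did not pass the test, 0.495 and 0.557 FPKM. Nfkbie added 0.029 FPKM, and Nfkbiz, at -0.242 FPKM, lowered the sum (neither passed the test). Over the longest transcript of each gene, the difference in the sum was 4.02 FPKM, or 29.3% of that in Nfkbia. With 1 mESC clone left out, the difference over all exons ran from 2.23 FPKM (without KO clone 2) to 3.71 FPKM (without KO clone 1). All 6 members together summed to 40.3 ± 3.37 FPKM in WT and 30.0 ± 1.38 FPKM in KO clones. Nfkbia was 48.4% ± 4.51 of that sum in WT and 20.6% ± 1.76 in KO clones (SD, n = 3). These are levels of RNA from 2 classes of gene, and the sum of the 3 classical inhibitors, which excludes Bcl3, was 29.2 ± 3.17 FPKM in WT and 16.3 ± 1.27 FPKM in KO clones. The KO sums that include Nfkbia count its RNA in clones selected, per the study's methods, for lack of IκBα protein.

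**Figure D2:**
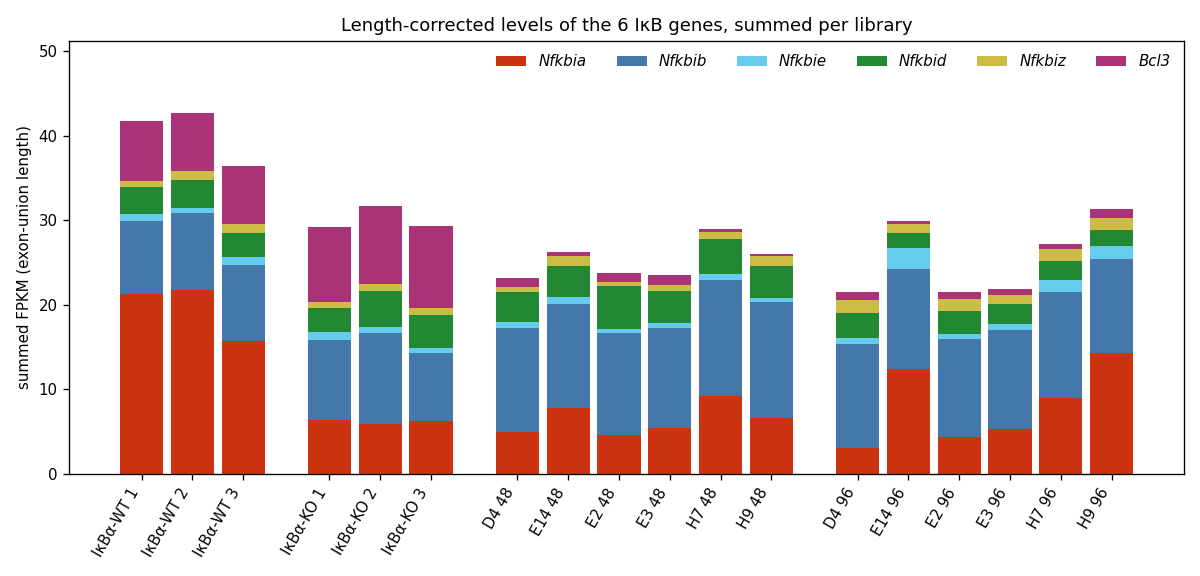
Summed FPKM of the 6 IκB genes (vertical axis, from 0), with 1 stacked bar per library and 1 colour per gene, for the mESC clones of either genotype and the EB libraries by clone code and hour. The bars of IκBα-KO clones (29.1 to 31.6 FPKM) are lower than those of IκBα-WT clones (36.4 to 42.7 FPKM), and Bcl3 is a thin segment in every EB bar.

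The promoters of Nfkbia and Bcl3, the members that differed between genotypes, are shown as the 250 bases before the RefSeq start site (GRCm38.p6, read in the direction of the gene). Capitals mark matches on either strand to a loose κB-type motif, GGGNNNNNCC, where N is any base.
Nfkbia, chr12:55492648-55492897, minus strand: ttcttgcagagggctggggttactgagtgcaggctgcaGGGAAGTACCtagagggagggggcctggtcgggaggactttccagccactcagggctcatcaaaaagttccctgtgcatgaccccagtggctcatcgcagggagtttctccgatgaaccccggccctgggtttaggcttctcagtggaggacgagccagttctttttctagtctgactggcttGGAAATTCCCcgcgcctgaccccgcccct
Bcl3, chr7:19822756-19823005, minus strand: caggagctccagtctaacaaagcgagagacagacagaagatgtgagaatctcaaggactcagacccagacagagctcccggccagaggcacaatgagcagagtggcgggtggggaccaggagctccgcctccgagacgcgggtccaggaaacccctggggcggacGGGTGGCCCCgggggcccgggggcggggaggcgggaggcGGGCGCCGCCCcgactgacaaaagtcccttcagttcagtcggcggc
The Nfkbia window holds 2 separate matches, the nearer of them 20 to 29 bases before the start site. The Bcl3 window holds 3, of which 2 overlap on opposite strands and are printed as 1 run of capitals. A match to this motif occurs in 45.8% of the 32851 promoters of the same length, so it is common. RefSeq windows were found for 5 of the 6 members. The Nfkbie window held 3 matches (2 overlapping), the Nfkbib window 0, and the windows of 3 start sites of Nfkbid 4, 2 and 1. The STAT-type motif TTCNNNGAA, present in 7.02% of promoters, was found before 2 of the Nfkbid start sites and in no other member's window. Matches of letters are a description and not evidence of binding.

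Between mESCs and 48 hr EBs, Bcl3 was the member that differed most. At this contrast 14.9% of the 25318 genes tested were higher and 13.0% lower in 48 hr EBs, and the mESC side held clones of both genotypes. Bcl3 was at 16.9 to 24.2 CPM in the 6 mESC libraries (median 19.6) and at 0.814 to 3.10 CPM in the 48 hr EBs (median 2.01). The lowest mESC library was far above the highest EB library. At 48 hr clones D4, E14, E2, E3, H7 and H9 were at 2.76, 1.27, 2.80, 3.10, 1.03 and 0.814 CPM. Bcl3 fell by 3.35 on the log2 scale (SE 0.35, edgeR adjusted p = 1.33e-06), 10.2-fold lower with a 95% interval of 6.15 to 16.9. In bulk RNA, fewer cells that express a gene and less RNA per cell cannot be told apart. On the deposited variance-stabilized log2 scale, which compresses differences at low counts, the difference was -1.78.

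Nfkbib rose. It was at 17.4 to 23.4 CPM in mESCs (median 19.6) and at 25.8 to 29.7 CPM in 48 hr EBs (median 26.7). These ranges did not overlap, and how many of all genes separated in this way was not counted. Nfkbib was called in the edgeR test. Its log2 fold change was 0.47 (SE 0.08, edgeR adjusted p = 0.000125), a fold of 1.38 with a 95% interval of 1.24 to 1.54. The other members tested did not pass. Nfkbie had a log2 fold change of -0.31 (edgeR adjusted p = 0.505), Nfkbid of 0.23 (0.267) and Nfkbiz of -0.10 (0.771). Their 95% intervals of the fold were 0.513 to 1.27, 0.949 to 1.45 and 0.677 to 1.28. An alternative added after the values were seen used the KO mESC clones alone as the reference, and Nfkbiz was then at 0.11.

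Nfkbia was described but not tested across stages. It was at 7.31 to 14.9 CPM in 48 hr EBs (median 9.67) and at 4.97 to 23.0 CPM in 96 hr EBs (median 11.5). All 12 EB libraries were below the lowest IκBα-WT mESC clone (25.3 CPM), although 6 of the 12 EB libraries are IkappBalpha+/+ by the labels. At 96 hr the range was wide, and clones D4, E14, E2, E3, H7 and H9 were at 4.97, 19.9, 7.01, 8.53, 14.5 and 23.0 CPM. Nfkbia was higher at 96 hr than at 48 hr in 2 of the 6 clone codes.

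Between 48 hr and 96 hr EBs, Nfkbie and Nfkbiz rose and Nfkbid fell, while Bcl3 and Nfkbib did not pass the test. This contrast uses the same 48 hr libraries as the preceding one, so the fold changes of both are not independent. Of the 25318 genes, 13.9% were higher and 13.8% lower at 96 hr. Against these shares, 2 of the 5 members tested were higher and 1 was lower.

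Nfkbie was at 1.38 to 2.53 CPM at 48 hr (median 1.74) and at 1.77 to 7.52 CPM at 96 hr (median 3.22). At 96 hr clones D4, E14, E2, E3, H7 and H9 were at 1.99, 7.52, 1.77, 2.10, 4.35 and 4.88 CPM, so that E14, H7 and H9 were above the whole 48 hr range and the others within it. It was higher at 96 hr in all 6 clone codes, by 1.05-fold in D4 to 3.14-fold in H9. How many of all genes rose in all 6 codes was not counted. Its stage difference in log2 was 1.05 (SE 0.31, edgeR adjusted p = 0.0184), a fold of 2.07 with a 95% interval of 1.32 to 3.25.

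Nfkbid was at 8.50 to 11.7 CPM at 48 hr (median 8.94) and at 4.38 to 6.91 CPM at 96 hr (median 5.48). The stages did not overlap, and all 6 clone codes were lower at 96 hr. How many of all genes showed either pattern was not counted. Nfkbid fell by 0.78 on the log2 scale (SE 0.15, edgeR adjusted p = 0.000996), 1.72-fold lower with a 95% interval of 1.39 to 2.12.

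Nfkbiz was at 2.53 to 5.81 CPM at 48 hr (median 3.76) and at 5.17 to 7.60 CPM at 96 hr (median 7.04). The stages overlapped, and 5 of 6 clone codes were higher at 96 hr, with E14 the exception. The log2 fold change was 0.70 (SE 0.22, edgeR adjusted p = 0.0232), a fold of 1.63 with a 95% interval of 1.19 to 2.24. Without the 48 hr library of clone E2 it was 0.60 with an edgeR adjusted p of 0.0546.

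Nfkbib was at 24.0 to 27.2 CPM at 96 hr (median 25.5), with a log2 fold change of -0.10 (edgeR adjusted p = 0.346, 95% interval of the fold 0.837 to 1.04). Bcl3 stayed low at 0.708 to 2.78 CPM (median 2.01), with a log2 fold change of -0.06 (edgeR adjusted p = 0.910) and a 95% interval of the fold from 0.593 to 1.54. Its direction differed between clone codes, from 0.559-fold in E14 to 3.42-fold in H9, and with the clone code as a block the log2 fold change was 0.0046.

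Per length, Nfkbib was the most abundant member in EBs, at 12.7 ± 0.804 FPKM (SD, n = 6) at 48 hr and 11.8 ± 0.523 FPKM at 96 hr. Nfkbia followed at 6.42 ± 1.84 and 8.07 ± 4.57 FPKM, and at 96 hr its range overlapped that of Nfkbib. Nfkbid came next at 4.01 ± 0.514 and 2.33 ± 0.428 FPKM, overlapping Nfkbia at 48 hr only. The remaining 3 members had lower means, with overlapping neighbours among them at both stages, and their ranges lay below that of Nfkbid except for Nfkbie at 96 hr. Nfkbiz was at 0.801 ± 0.287 and 1.31 ± 0.216 FPKM, Nfkbie at 0.598 ± 0.136 and 1.24 ± 0.743 FPKM, and Bcl3 at 0.792 ± 0.416 and 0.760 ± 0.295 FPKM. The 5 members other than Nfkbia summed to 18.9 ± 0.662 FPKM at 48 hr and 17.5 ± 0.685 FPKM at 96 hr, against 20.7 and 23.9 FPKM in the mESC genotypes.

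**Figure D3:**
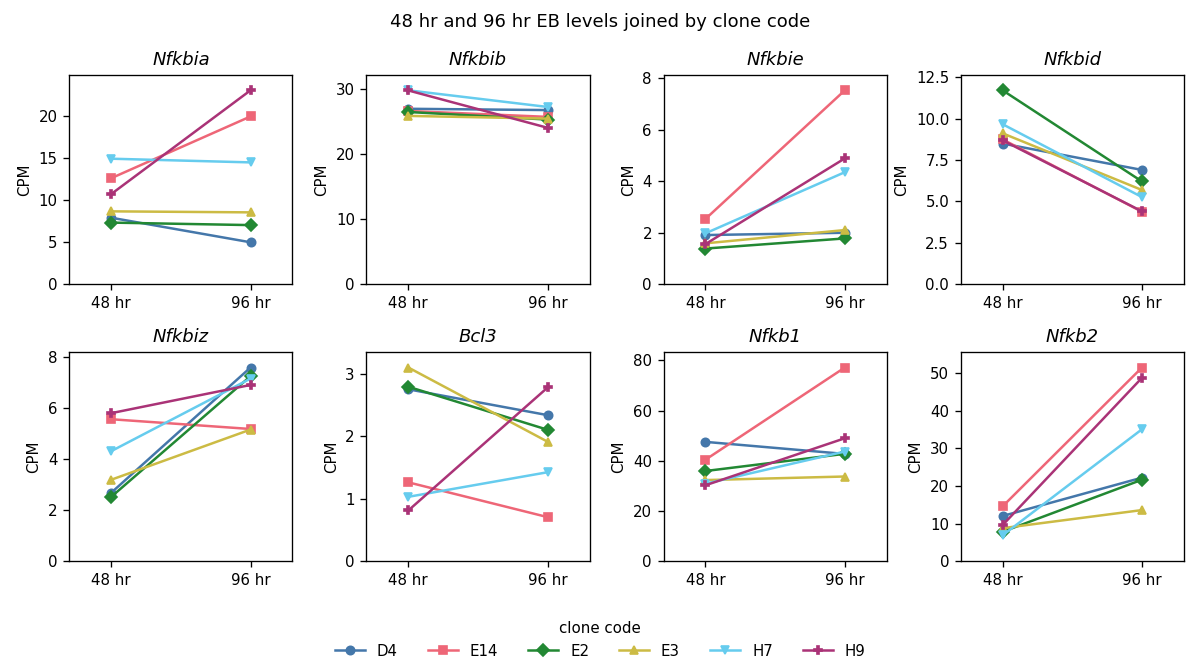
Levels in CPM of the IκB genes and the precursors in 48 hr and 96 hr EBs, with 1 line joining the libraries that share a clone code. All 6 lines rise for Nfkbie, all 6 fall for Nfkbid, and the lines of Nfkbia spread from 4.97 to 23.0 CPM at 96 hr.

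The summed level of 8 markers of differentiating EBs at 96 hr was 116, 1147, 137, 63.1, 900 and 1230 CPM in clones D4, E14, E2, E3, H7 and H9, and 6 of the 8 genes were higher than at 48 hr. Of all 25318 genes tested, 13.9% were higher. The range of the sum at 48 hr was 35.4 to 251 CPM. The libraries with high Nfkbia and Nfkbie at 96 hr were thus those with high levels of these markers. Each stage holds both genotypes and the labels do not pair the codes with them. Genotype and differentiation therefore cannot be told apart in this pattern. Summed levels of 7 blood and endothelial markers were 48.8 to 121 CPM at 48 hr and 31.6 to 479 CPM at 96 hr, the highest in E14 (4 of 7 genes higher), and those of 6 fibroblast markers were 9.35 to 29.8 CPM over both stages (1 of 6 genes higher at 96 hr). This 1 of 6 is near the share of all genes. No marker gene was at 0 counts in a whole stage. The part of these cell types in the stage differences was not tested.

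The precursors with IκB activity were measured beside the members. Nfkb1 was at 35.6 to 41.2 CPM in IκBα-WT and at 31.8 to 44.2 CPM in IκBα-KO mESCs. Nfkb2 was at 12.6 to 15.8 CPM in WT and at 9.84 to 14.3 CPM in KO clones. The genotypes overlapped for both, with log2 fold changes of 0.03 for Nfkb1 and -0.24 for Nfkb2 (edgeR adjusted p = 0.920 and 0.455). Nfkb2, whose product p100 belongs to the alternative pathway, rose in the EBs. It ranged over 6.92 to 14.6 CPM at 48 hr (median 9.21) and over 13.6 to 51.5 CPM at 96 hr (median 28.7), and the stages overlapped. Its log2 fold change was 1.69 (SE 0.28, edgeR adjusted p = 0.000396), a fold of 3.22, and all 6 clone codes were higher at 96 hr. Nfkb1 had a log2 fold change of 0.41 (SE 0.16, edgeR adjusted p = 0.0653), with 30.3 to 47.6 CPM at 48 hr and 33.8 to 77.2 CPM at 96 hr. With the clone code as a block its edgeR adjusted p was 0.0480. It was also under 0.05 without the 48 hr library of D4 (0.0281) and without the 96 hr library of E3 (0.0209). From mESCs to 48 hr EBs the log2 fold changes were -0.09 for Nfkb1 and -0.34 for Nfkb2 (edgeR adjusted p = 0.721 and 0.388). Exons of Nfkb2 overlap those of Psd and AC114539.1 on the opposite strand.

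**Figure D4:**
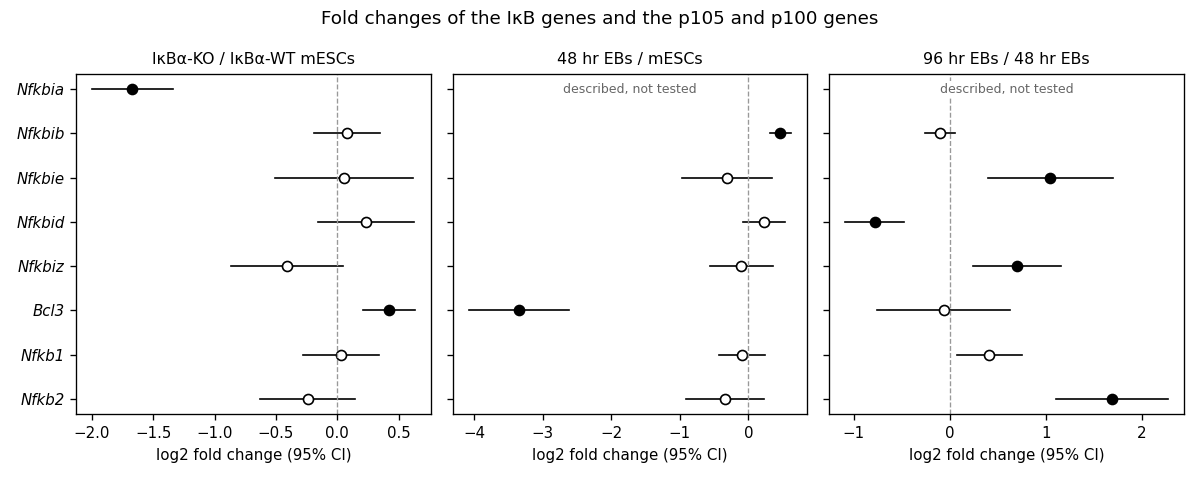
Log2 fold changes (horizontal axes, whose ranges differ) with 95% intervals of the IκB genes and of Nfkb1 and Nfkb2 in the 3 comparisons, filled where the adjusted p was under 0.05. Nfkbia was tested between the mESC genotypes only, at -1.67, and the intervals of Nfkbib, Nfkbie, Nfkbid and Nfkbiz include 0 there.

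Lists of other pathway genes were read against the shares of all genes called between the mESC genotypes, 3.09% higher and 1.69% lower. Of 5 NF-κB subunit genes (Nfkb1, Nfkb2, Rela, Relb and Rel), 0 were called by edgeR, by DESeq2 or by limma on the deposited log2 values, 1 (Rel) had an unadjusted p under 0.05 in edgeR, and their median log2 fold change was 0.03 against 0.01 over all genes tested. Of 14 feedback targets of NF-κB, 0 were called by edgeR or limma and 1 by DESeq2, and 3 had an unadjusted p under 0.05 in edgeR (median -0.03). Of 16 genes of IKK kinases and their upstream adaptors, 2 were higher and 1 was lower. Ikbke, which encodes the kinase IKKε, had a log2 fold change of 1.39 (SE 0.30, edgeR adjusted p = 0.0402), and Tab1, an adaptor of the kinase TAK1, of 0.71 (SE 0.15, edgeR adjusted p = 0.0358). Traf3, an adaptor that restrains the alternative pathway, had a log2 fold change of -0.62 (SE 0.12, edgeR adjusted p = 0.0308). Of 14 genes for IκB degradation and inhibition of the pathway, 1 was higher, the deubiquitinase gene Cyld at 0.59 (SE 0.08, edgeR adjusted p = 0.0113).

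The genes around some of these also differed. In the 10 Mb window of Traf3 on chromosome 12 the neighbours had medians of -0.94, -0.37 and -1.04 in log2 CPM from the average of the WT clones, in KO clones 1, 2 and 3. In the window of Cyld on chromosome 8 the medians were 0.57, 0.32 and 0.55. With an offset for each window in each library, the log2 fold change of Traf3 was 0.15 and that of Cyld 0.11 (edgeR adjusted p = 0.474 and 0.447), so neither passed the test relative to its neighbours. The neighbours of Tab1 on chromosome 15 had medians of 0.034, 0.61 and -0.034, and those of Ikbke on chromosome 1 of 0.082, -0.034 and 0.045. Without KO clone 2, where 2209 of all 21001 genes tested were higher and 1527 lower, the calls were 1 higher of the 5 subunit genes, 3 higher and 1 lower of the 16 upstream genes, 1 higher and 2 lower of the 14 degradation genes, and 1 higher and 2 lower of the 14 feedback targets. Without any 1 of the WT clones, none of the 4 genes named here was called, with edgeR adjusted p of 0.0513 to 0.187. Without KO clone 1, Tab1 and Traf3 were not called (0.0832 and 0.0907), and without KO clone 3, Ikbke and Traf3 were not called (0.0816 and 0.0936).

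From mESCs to 48 hr EBs, where 14.9% of all genes rose and 13.0% fell, 1 of 5 subunit genes rose and 1 fell. Rela, which encodes p65, had a log2 fold change of 0.59 (SE 0.11, edgeR adjusted p = 0.000368), and Relb, the partner of p52, fell by 0.80 (SE 0.21, edgeR adjusted p = 0.00818). Among the 16 upstream genes 2 rose and 3 fell, with Map3k14 (the kinase NIK) at -0.87, Traf2 at 0.63 and Chuk (IKKα) at -0.54 as the largest. Among the 14 degradation genes 2 rose and 3 fell, with Cyld at -0.69, the ubiquitin-conjugating enzyme gene Ube2d3 at -0.50 and the ubiquitin ligase subunit gene Skp1a at -0.37. Of the 14 feedback targets 1 rose (Irf1, 1.25) and 4 fell, with Ier3 (-1.46) and Icam1 (-1.36) the largest. The median of the feedback targets was -0.57, against 0.00433 over all genes.

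From 48 hr to 96 hr, where 13.9% of all genes rose and 13.8% fell, 3 of 5 subunit genes rose and 0 fell. Besides Nfkb2 these were Rel at 0.78 (SE 0.26, edgeR adjusted p = 0.0331) and Relb at 0.72 (SE 0.21, edgeR adjusted p = 0.0172). With the clone code as a block the edgeR adjusted p of Rel was 0.0527. Without single EB libraries it was 0.0531 to 0.0885 in 7 cases (D4, E2, E3 and H7 at 48 hr, and E14, H7 and H9 at 96 hr), and that of Relb was 0.0544 without H9 at 96 hr. Without H9 at 96 hr 1 of the 5 subunit genes was called, and without E3 at 96 hr all 5 were. Of the 14 feedback targets 7 rose and 1 fell, with a median log2 fold change of 0.59 against -0.03 over all genes, and 4 rose without the 48 hr library of clone E2. Tnfaip2 had the largest at 3.17 (SE 0.99), followed by the cytokine gene Csf1 at 2.79 (SE 0.59) and the chemokine gene Cxcl1 at 2.29 (SE 0.76). Over the alternatives these log2 fold changes were as low as 0.432, 0.732 and 0.16, the 0.432 of Tnfaip2 on the deposited log2 values. Levels of these genes are not given here, and the part of low counts in their fold changes was not tested. Without the 96 hr library of clone E14, Tnfaip2 was at 0.69 with an edgeR adjusted p of 0.429, and with the clone code as a block at 1.74 with 0.112. It was also not called without the 48 hr libraries of D4 (0.0507) or E2 (0.0529). The adjusted p of Cxcl1 was 0.0616 to 0.0867 without D4, E2 or E3 at 48 hr or H7 or H9 at 96 hr. Of the 14 degradation genes 3 rose and 3 fell, the largest being Tnfaip3 at 1.22, Nfkbil1 at 0.64 and Nkiras2 at 0.43. Tnfaip3 is also on the feedback list. Among the 16 upstream genes 3 rose and 2 fell, with Tab1 at 0.67, Traf6 at 0.40 and Chuk at -0.23 as the largest. Without the 96 hr library of H7 or of H9, 1 of them rose and 1 fell, and the adjusted p of Traf6 was 0.0518 and 0.0529. The adjusted p of Chuk was 0.0547 to 0.138 without D4, E2 or H7 at 48 hr, E14, H7 or H9 at 96 hr, WT mESC clones 2 or 3 or KO mESC clone 1.

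Over the 18 libraries, each member's log2 CPM was set beside that of 13177 genes whose mean count was 50 or more, as a description with no test, since the libraries share stages and clones. Bcl3 was most like Ccdc112, Fyttd1 and Hmmr (Pearson r = 0.97 for each). The genes most like Nfkbia were Zfp386 (0.95), Ttc30a1 (0.93) and Ccnl1 (0.91). For Nfkbib they were Ppp1ca (0.96), Csnk2b (0.95) and Rpl41 (0.94), and for Nfkbie Syde1 (0.93), Rbms1 (0.93) and Hgsnat (0.92). For Nfkbid they were Heatr1 (0.94), 4833439L19Rik (0.92) and Steap3 (0.92), and for Nfkbiz Hapln4 (0.96), Tnk1 (0.96) and Marveld3 (0.94). No member was among the 3 genes most like another member. With 3 places among 13177 genes, this does not bear on whether the members vary together.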

How the data were processed

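Per the labels and the study's methods, the authors trimmed the paired-end reads with Trim Galore 0.6.6, aligned them with STAR 2.7.8 to GRCm38, assigned those with a unique position to exons by featureCounts of Subread 2.0.1, and deposited the whole-number counts as they were. The authors also deposited log2 values from the variance-stabilizing transformation of DESeq2 1.38.3, used here only as an alternative scale. The strand setting is not given in the sources used here. A gene was tested where the libraries compared held at least 10 of its counts in all, in R 4.3.3, with the quasi-likelihood test of edgeR 4.0.16 (TMM scaling, robust dispersions, Benjamini-Hochberg adjustment over all genes tested, threshold 0.05). KO against WT was fitted on the 6 mESC libraries, and the stage contrasts on all 18 libraries without genotype. CPM use TMM scaling over the 18 libraries, and FPKM add the exon length of each gene in GRCm38. SE is the absolute log2 fold change over the square root of F. Whether groups overlapped, and how many clone codes rose or fell, are descriptions of the named genes. The shares of all genes with the same patterns were not counted.

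The members and lists were chosen with earlier results of these data known. The genes named are the 6 members, Nfkb1 and Nfkb2, up to 3 genes per list with the largest called change in each comparison, and the 3 genes most like each member. Alternatives were DESeq2 1.42.0 (size factors and Wald test), limma 3.58.1 on the deposited log2 values, other count filters, each library left out, a replicate or clone block, and 10 Mb window offsets. Using WT or KO mESCs alone as the reference was added after seeing the data. EB libraries with the same clone code deviated together from their stage means (correlations 0.396 to 0.734), and the codes in the column names were taken to pair them. The highest correlation with another code was 0.751 for E14, above its own 0.478, and below their own for the other 5 codes (0.540 against 0.558 for H9). No 2 libraries of the same group were duplicates (chi-square per degree of freedom at least 5.04 in each such pair). Depth was 28.3 M to 40.9 M counts per library.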

Additional observations from a re-analysis of the deposited data

Results flagged for a closer look

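Among 16 gene-by-stage groups of 6 EB libraries (8 genes in 2 stages), 2 held a library that stood far from the rest. For independent values from a common population, chance alone gives about 5% of groups. Each stage holds both genotypes and the genes share libraries, so this 5% may not hold here. Nfkbid was at 11.7 CPM in the 48 hr EBs of clone E2, above a group whose median was 8.94 CPM, and the gap to the nearest library was 0.637 of the group's range. Nfkb1 was at 77.2 CPM in the 96 hr EBs of clone E14, against a group median of 43.3 CPM, with a gap of 0.649 of the range.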

How the results depend on the processing

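Direction and call of 970 of 1054 single-gene values were the same as reported, 65 lost the call, 5 gained it and 14 changed sign, most of these with values near 0. The stage counts kept within 1.5 times of the reported 7053 and 7019 genes in all alternatives. The count of 1046 genes in mESCs was 2146 with the DESeq2 Wald test and 631 with the replicate number as a replicate block. With 1 clone left out it ran from 0 without WT clone 2 (3104 genes at an unadjusted p under 0.05, no other tool run there) to 3736 without KO clone 2, with 381, 264, 318 and 34 without KO 1, KO 3, WT 1 and WT 3. The cause was not tested.

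Replicate numbers of mESC clones do not pair the genotypes, since same-numbered clones had correlations of deviations of -0.16, 0.00032 and -0.02. With the replicate block, Bcl3 was at 0.42 with an edgeR adjusted p of 0.113, Ikbke at 1.33 with 0.0543, Tab1 at 0.69 with 0.0532 and Traf3 at -0.63 with 0.0530. The adjusted p of Bcl3 was 0.00337 with DESeq2 and 0.0281 to 0.0467 with other scaling, filters, limma or windows. With libraries left out, the sign changed for Nfkbib (-0.023 to 0.17), Nfkbie (-0.14 to 0.19) and Nfkb1 (-0.072 to 0.17) in mESCs and for Bcl3 from 48 hr to 96 hr (-0.21 to 0.14), which was 0.0046 with the clone block. Nfkbiz at 48 hr was at 0.11 against KO mESCs alone, and Traf3 at 0.15 with window offsets. Against WT mESCs alone, Cyld (0.190) and Map3k14 (0.0982) were not called at 48 hr, nor were Relb (0.0632) and Skp1a (0.0761) against KO mESCs alone. With the deposited log2 values in limma, Rel (0.0623), Tnfaip2 (0.235) and Ikbke (0.0557) were not called, and the differences of Nfkbie, Nfkbid and Nfkbiz from 48 hr to 96 hr were 0.34, -0.42 and 0.36. Nfkb1 at 96 hr passed with DESeq2 (0.0472) and the filterByExpr filter (0.0414), and Chuk did not without a filter (0.0809).

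Nfkbie, Nfkbiz and, in EBs, Bcl3 had the fewest counts of the members, and counting error was not separated from the spread between clones. Levels of RNA do not give levels of IκB proteins.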
